A study of Mus musculus with 12 samples.

Results

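The 8 genes Cxcl1, Cxcl2, Cxcl9, Cxcl10, Cxcl12, Cxcl14, Cxcl16 and Cx3cl1, which encode CXC and CX3C chemokine ligands, were followed by RNA sequencing in slices of mouse auditory cortex. They were picked by gene symbol, 8 of the 20989 loci in the expression table, and each is a single locus of the mm10 genome. The list was chosen with the results of the comparison of cocktail with control slices known. The values of these 8 genes in that comparison are therefore described here, with their spread and with the call of the fit across all loci, and no p-value is attached to them.

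The mice were C57bl6/J animals aged 4 weeks, with no transgene or genetic change named. An acute coronal slice holding auditory cortex was divided at the midline, so that each of 6 mice gave 1 control and 1 cocktail library. The control hemisphere was kept for 1 h in artificial cerebrospinal fluid (aCSF). The other hemisphere spent 1 h in the same fluid with 50 µM bicuculline methiodide, which blocks GABA-A receptors, 100 µM norepinephrine, 50 µM carbamoylcholine, which activates acetylcholine receptors, 100 µM dopamine, 100 µM serotonin and 40 µM ascorbic acid. The methods of the study add a further rest of 1 h in aCSF for both hemispheres before the cortex was dissected for RNA. By that account the RNA was taken after the cocktail had been replaced by aCSF, although the labels do not mention this rest. All the agents were given together, so the contribution of one cannot be told apart from that of another. Both groups had been sliced, rested and dissected in the same way, and no tissue taken without slicing was analysed here. The libraries came from whole dissected tissue, in which fewer cells of a type and less RNA per cell cannot be told apart.

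Chemokines are small secreted or membrane-held proteins that steer migrating cells through G protein-coupled receptors, and the families are named after the spacing of their first cysteines. Cxcl1 and Cxcl2 act on Cxcr2 and draw neutrophils, and Cxcl9 and Cxcl10 are interferon-inducible ligands of Cxcr3, the receptor of activated T cells. Cxcl12 is a constitutive ligand of Cxcr4 and the scavenger Ackr3 that guides neuronal and blood cell precursors. Cxcl14 is found in many epithelia and in interneurons, and Cxcl16 and Cx3cl1 are made as membrane proteins that proteases shed. In brain, Cx3cl1 (fractalkine) comes mainly from neurons, and its receptor Cx3cr1 sits on microglia.

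Among these genes are 2 pairs of neighbours on chromosome 5. Cxcl1 (chr5:90891245-90893115) and Cxcl2 (chr5:90903899-90905938) lie on the plus strand, 10783 bases apart. Cxcl9 (chr5:92321331-92328079) and Cxcl10 (chr5:92346639-92348889) lie on the minus strand, 18559 bases apart. The others are spread over the genome, with Cxcl12 at chr6:117168535-117181368 on the plus strand, Cxcl14 at chr13:56288643-56296551 on the minus strand, Cxcl16 at chr11:70454234-70459984 on the minus strand and Cx3cl1 at chr8:94772180-94782426 on the plus strand.

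The DNA before the start sites is shown because both ligand genes called in the comparison, Cxcl2 and Cxcl10, and the uncalled Cxcl1 carry the kappaB motif there. The sequences are from RefSeq on GRCm38.p6, which is the mm10 build, run 5′ to 3′ on the strand of the gene and end 1 base before the annotated start. A promoter entry was matched by symbol for 7 of the 8 genes, all but Cxcl16. Capitals mark matches to the kappaB motif, to the core of the interferon-stimulated response element (ISRE, searched as GAAANNGAA), to the interferon-gamma element GAS (TTCNNNGAA) and to the AP-1 motif (TGANTCA), each searched on both strands.
Cxcl1, chr5:90890995-90891244, plus strand: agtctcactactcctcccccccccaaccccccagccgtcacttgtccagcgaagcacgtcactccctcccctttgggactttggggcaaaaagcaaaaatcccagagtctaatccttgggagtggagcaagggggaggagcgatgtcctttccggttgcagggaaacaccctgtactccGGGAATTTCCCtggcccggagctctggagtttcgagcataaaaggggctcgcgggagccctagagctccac
Cxcl2, chr5:90903649-90903898, plus strand: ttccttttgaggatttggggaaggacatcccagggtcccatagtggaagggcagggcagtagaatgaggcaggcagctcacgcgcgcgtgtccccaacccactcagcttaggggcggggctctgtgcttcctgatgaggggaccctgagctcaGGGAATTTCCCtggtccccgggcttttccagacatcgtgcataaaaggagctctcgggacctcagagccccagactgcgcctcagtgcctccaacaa
Cxcl10, chr5:92348890-92349139, minus strand: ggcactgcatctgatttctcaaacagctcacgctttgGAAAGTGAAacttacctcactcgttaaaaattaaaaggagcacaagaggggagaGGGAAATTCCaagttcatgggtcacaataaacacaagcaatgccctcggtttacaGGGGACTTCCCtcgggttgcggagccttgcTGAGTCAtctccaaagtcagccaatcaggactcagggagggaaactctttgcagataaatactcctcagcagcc
Cxcl9, chr5:92328080-92328329, minus strand: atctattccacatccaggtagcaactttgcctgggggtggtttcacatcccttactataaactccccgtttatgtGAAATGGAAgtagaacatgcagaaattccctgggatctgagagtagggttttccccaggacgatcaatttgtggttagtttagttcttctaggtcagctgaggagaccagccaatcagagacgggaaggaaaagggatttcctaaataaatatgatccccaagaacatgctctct
Cxcl12, chr6:117168415-117168534, plus strand, the nearest 120 bases, with no capitals because none of these motifs was matched: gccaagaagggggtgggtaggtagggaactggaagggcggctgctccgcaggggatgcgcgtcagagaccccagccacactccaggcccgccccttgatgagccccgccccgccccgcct
Cxcl14, chr13:56296552-56296801, minus strand, a ligand gene not called: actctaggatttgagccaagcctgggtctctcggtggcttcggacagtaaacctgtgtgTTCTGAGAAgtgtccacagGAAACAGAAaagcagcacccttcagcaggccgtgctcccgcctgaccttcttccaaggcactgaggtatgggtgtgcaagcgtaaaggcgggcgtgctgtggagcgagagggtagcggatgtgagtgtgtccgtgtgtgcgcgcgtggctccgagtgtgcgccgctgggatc

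Cxcl1 and Cxcl2 held a kappaB match in the same letters, from 71 to 62 bases before the start in Cxcl1 and from 97 to 88 bases before it in Cxcl2, and in each gene a match on the other strand overlapped it by all but 1 base. It was part of the longest run of letters that their 250 bases shared, the 14 bases gggaatttccctgg. Cxcl10 held 3 kappaB matches on the plus strand of the gene, at 159 to 150, 104 to 95 and 103 to 94 bases before the start, of which the last pair overlap. It also held an ISRE core at 213 to 205 bases and an AP-1 match at 74 to 68 bases. Cxcl9 held an ISRE core at 175 to 167 bases and shared a run of 11 bases, cagccaatcag, with Cxcl10, little longer than the 10 bases shared by Cxcl2 and Cxcl10 or by Cxcl12 and Cx3cl1. Cxcl14 held an ISRE core at 172 to 164 bases beside a GAS match at 191 to 183 bases. None of these 4 motifs was matched in the 250 bases of Cxcl12 or Cx3cl1.

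**Figure D1:**
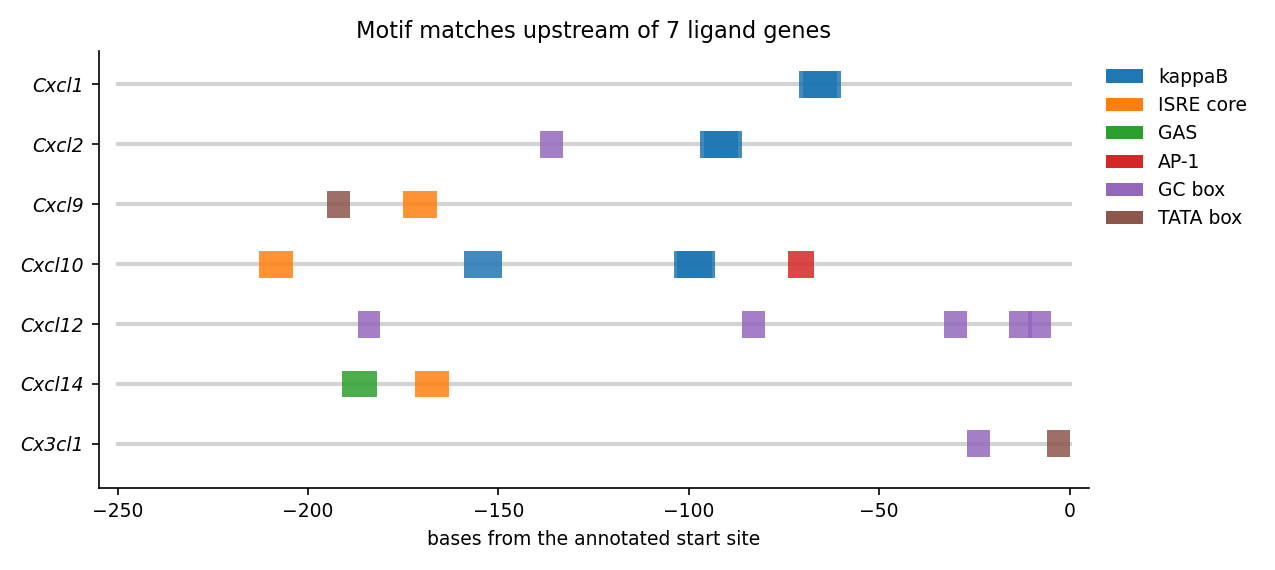
Motif matches in the 250 bases before the annotated start of 7 ligand genes, with distance from the start site in bases on the horizontal axis, a row for each gene and a colour for each motif on either strand. The kappaB blocks are in Cxcl1, Cxcl2 and Cxcl10, and Cxcl12 has 5 GC boxes.

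Such matches are not rare. Among 18934 promoters of the same length from 15476 genes in the table, 8.06% held a kappaB match, 6.87% an ISRE core, 6.69% a GAS match and 6.16% an AP-1 match. The cyclic AMP response element TGACGTCA was in 2.01% and in none of the 7 ligand promoters. The GC box GGGCGG was in 44.8% of all promoters and occurred in Cxcl12 (5 matches), Cxcl2 (1) and Cx3cl1 (1). The letters TATAAA, searched as the TATA box, were in 11.2%. Among the ligands they were matched in Cxcl9, at 195 to 190 bases before the start, and in Cx3cl1, at 6 to 1 bases before it. Whether either match serves as a TATA box was not tested, and variants of these letters were not searched. The Cxcl9 and Cxcl10 promoters had 44.4% and 48% GC, below the median of 56.4% for all promoters, and the other ligand promoters had 59.2% to 64.8%. These are letter matches in a short window, and binding of any factor was not measured.

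Levels were read as FPKM, fragments scaled to transcript length and to the mapped fragments of the library, so that genes of different length can be set beside each other. The libraries held 10601067 to 19768881 reads in control slices and 13544297 to 17643462 in cocktail slices. Microglia (12 of 12 markers above the filter), endothelial cells (8 of 8) and neurons (15 of 15 markers of excitatory and inhibitory cells) were represented in the tissue. Of 8 markers of border macrophages and blood myeloid cells none reached a mean of 1 FPKM, and their summed level was 1.24 to 1.83 FPKM in control and 1.38 to 1.87 FPKM in cocktail libraries.

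In control slices the 8 ligands spanned a wide range of levels. Cx3cl1 stood first, with 342 ± 31 FPKM (SD, n = 6), above 99.6% of all loci in the table. Cxcl14 followed with 38.8 ± 3.57 FPKM, then Cxcl12 with 17.7 ± 2.5 and Cxcl10 with 16.7 ± 4.26 FPKM. Cxcl2 (7.37 ± 2.62 FPKM), Cxcl1 (5.15 ± 1.16) and Cxcl16 (4.72 ± 0.868) formed a lower group, and Cxcl9 was near the limit of the data at 0.233 ± 0.0942 FPKM. The order was therefore led by the neuronal ligand, and the ligands of the T cell receptor Cxcr3 stood at very different levels.

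Neighbours in this order were compared within the control libraries on the log2(FPKM + 1) scale. Cx3cl1 exceeded Cxcl14 by 3.10 ± 0.22 (SD, n = 6), Cxcl14 exceeded Cxcl12 by 1.10 ± 0.12, Cxcl10 exceeded Cxcl2 by 1.11 ± 0.67 and Cxcl16 exceeded Cxcl9 by 2.20 ± 0.27, each in 6 of 6 libraries. Each of these 4 steps gave p = 0.03125 in a two-sided exact permutation test that flips the signs of the 6 differences. That is the smallest value that 6 pairs allow. With only 4 of the 7 steps at that value, the adjusted p was 0.05469 for each, and none passed 0.05 after adjustment. The step from Cxcl12 to Cxcl10 was 0.10 ± 0.38, with that order in 4 of 6 libraries (exact permutation p = 0.5625, adjusted p = 0.5625). The step from Cxcl1 to Cxcl16 was 0.10 ± 0.23, in 5 of 6 libraries (exact permutation p = 0.375, adjusted p = 0.4375). Cxcl2 exceeded Cxcl1 by 0.40 ± 0.33, in 5 of 6 libraries (exact permutation p = 0.0625, adjusted p = 0.0875). Thus the levels of Cxcl12 and Cxcl10, of Cxcl2 and Cxcl1, and of Cxcl1 and Cxcl16 were not separated in every library.

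The spread between control hemispheres differed between the ligands. Cxcl2 had a coefficient of variation of 35.5%, Cxcl10 of 25.5%, Cxcl1 of 22.5% and Cxcl16 of 18.4%, against a median of 11% over all loci tested. Cxcl12 (14.2%), Cxcl14 (9.2%) and Cx3cl1 (9.08%) were nearer to that median. Counting error alone would give 9.58% for Cxcl2, 6.08% for Cxcl10 and 12.6% for Cxcl1, and 0.781% for the abundant Cx3cl1, from the reads behind each value.

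Cxcl10 was the ligand whose level differed most between the hemispheres. In control libraries of mice 1 to 6 it stood at 22.1, 13, 21.5, 14.2, 12.5 and 16.8 FPKM, and in the cocktail libraries of the same mice at 7.49, 4.18, 10.3, 6.54, 3.28 and 3.96 FPKM. Every cocktail library was below every control library, and Cxcl10 was the one ligand of the 8 whose groups did not overlap. The mean was 16.7 ± 4.26 FPKM in control and 5.96 ± 2.69 FPKM in cocktail slices, 2.8-fold higher in control. The difference within a mouse, cocktail minus control, was -1.40 on the log2(FPKM + 1) scale (SE 0.10) and ran from -1.85 in mouse 6 to -0.99 in mouse 3. The values rested on 204 to 477 reads in control and 61 to 181 in cocktail libraries. Of its 2252 exonic bases, 133 (5.91%) overlap Art3 on the opposite strand.

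Cxcl9, the other Cxcr3 ligand followed here, was close to the detection limit. It stood at 0.309, 0.191, 0.315, 0.27, 0.25 and 0.0647 FPKM in the control libraries of mice 1 to 6, from 2 to 18 reads. In the cocktail libraries it stood at 0.0783, 0.151, 0.137, 0.156, 0.111 and 0.0839 FPKM, from 4 to 6 reads. It was lower in cocktail in 5 of 6 mice, higher in mouse 6, and the groups overlapped. With a mean under 1 FPKM it was left out of the fit across loci. At 2 to 18 reads a library, the 95% Poisson intervals overlapped between the hemispheres of each mouse. Such overlap concerns single libraries and does not test the 6 mice together, so it does not show that the difference is counting error.

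Cxcl2 was the second ligand called. Its control values were 3.7, 5.59, 9.59, 6.13, 10.4 and 8.85 FPKM in mice 1 to 6, and its cocktail values were 2.61, 3.35, 7.58, 2.46, 2.64 and 3.98 FPKM. It was lower in the cocktail hemisphere of all 6 mice, but the groups overlapped, because the cocktail library of mouse 3 stood above the control libraries of mice 1, 2 and 4. The mean was 7.37 ± 2.62 FPKM in control and 3.77 ± 1.95 FPKM in cocktail slices. The log2(FPKM + 1) difference was -0.83 (SE 0.14), with a range over mice from -1.64 to -0.30. The call was lost in the fit without mouse as a block, without a filter on low loci, with voom on the recovered reads and without mouse 4, while the difference ranged from -0.98 to -0.66 over all the alternatives. Of the distinct 50-base stretches in Cxcl2 transcripts 3.28% also occur in Cxcl3, so a few reads could belong to either gene.

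Cxcl1, the neighbour of Cxcl2 on chromosome 5, was not called. It had 4.35, 4.71, 6.62, 3.55, 6.17 and 5.51 FPKM in control and 4.17, 4.16, 6.82, 5.32, 4.26 and 3.77 FPKM in cocktail libraries of mice 1 to 6. It was lower in 4 mice and higher in mice 3 and 4, with a log2(FPKM + 1) difference of -0.10 (SE 0.10). The order of the 2 neighbours differed with the condition. Cxcl2 was the higher of them in 5 of 6 control libraries and in 2 of 6 cocktail libraries.

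Cxcl16, whose membrane form holds cells that carry Cxcr6, stood at 3.36, 4.06, 5.56, 4.85, 5.57 and 4.91 FPKM in control and at 3.2, 2.63, 4.34, 4.72, 3.98 and 3.21 FPKM in cocktail libraries. It was lower in cocktail in all 6 mice, although by only -0.03 and -0.05 on the log2(FPKM + 1) scale in mice 4 and 1, and the groups overlapped. The difference was -0.29 (SE 0.07), and it was not called. Reads may be shared with Zmynd15, which covers 552 of its exonic bases (18.3%) on the opposite strand, and the strand setting of the FPKM estimates is not given in the sources used here.

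The 3 most abundant ligands did not pass the test. Cxcl12 ranged from 14.6 to 20.9 FPKM (median 17.7) in control and from 14 to 19.4 FPKM (median 17.2) in cocktail libraries, a log2(FPKM + 1) difference of -0.05 (SE 0.05). Cxcl14 ranged from 33.7 to 41.8 FPKM (median 40.4) and from 35.5 to 46.8 FPKM (median 38.8), a difference of 0.05 (SE 0.06). Cx3cl1 ranged from 298 to 376 FPKM (median 339) and from 315 to 366 FPKM (median 327), a difference of -0.02 (SE 0.05) that turned to 0.01 without mouse 1. Mice differed in direction for each of them, with lower cocktail values in 5, 2 and 4 of the 6 mice, respectively.

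**Figure D2:**
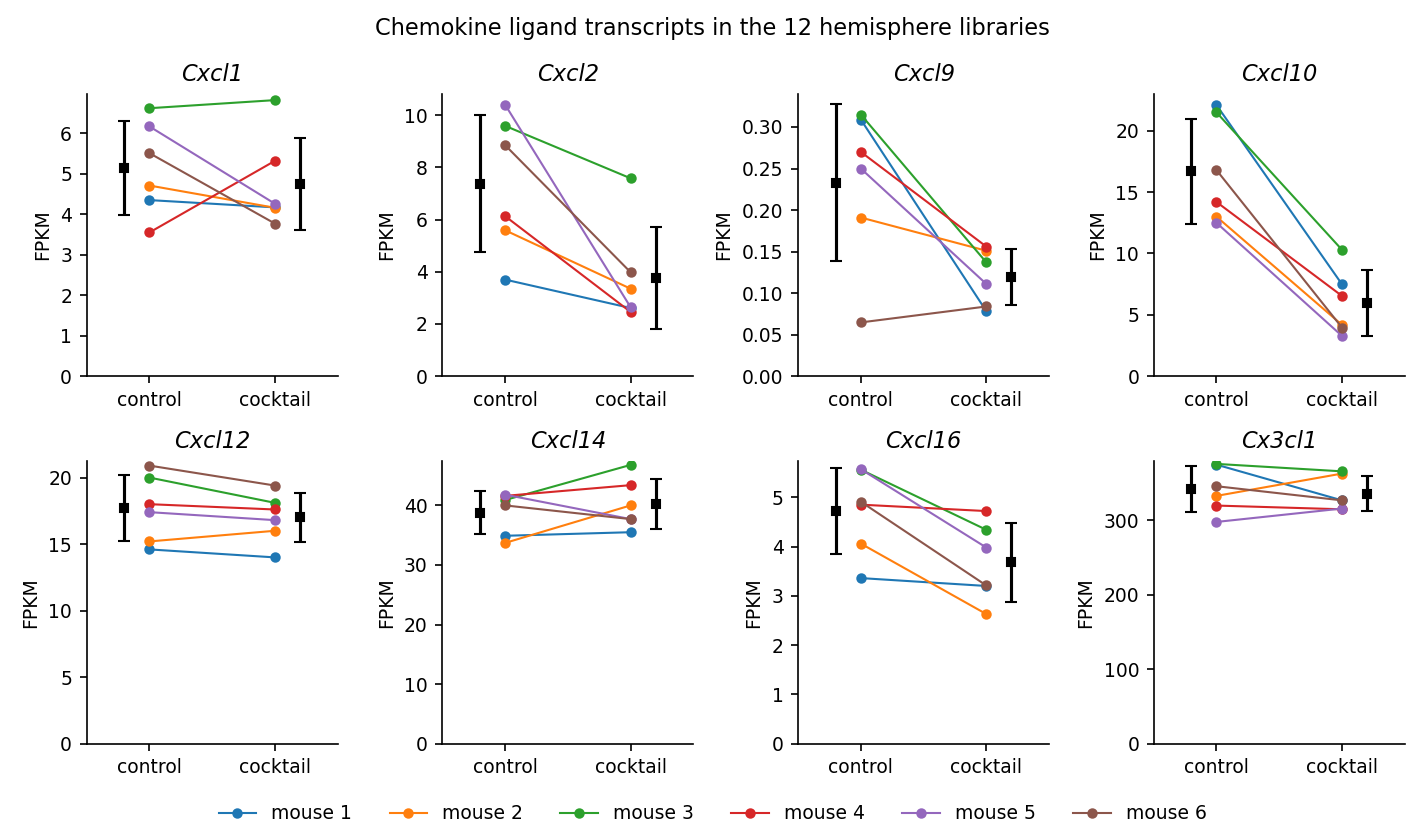
Level of each ligand in FPKM in the 12 libraries, on a linear axis from 0 in each panel, with a line joining the hemispheres of a mouse and black squares with bars for the mean and SD of 6 libraries. The lines of Cxcl10, Cxcl2 and Cxcl16 fall in all 6 mice, while those of Cxcl1, Cxcl12, Cxcl14 and Cx3cl1 have no common direction.

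In all, 2 of the 7 ligands in the fit were called lower in cocktail (Cxcl10 and Cxcl2) and none was called higher. Over the 12032 loci tested, 180 were called (1.5%), 33 lower (0.274%) and 147 higher (1.22%), and the groups failed to overlap, with cocktail the lower, at 24 loci (0.199%). Being lower in all 6 mice, as were Cxcl2, Cxcl10 and Cxcl16, was true of 320 loci (2.66%). Ordered from the most negative difference, Cxcl10 was number 2 and Cxcl2 number 7 of all loci, and Cxcl16 was number 45. Since the ligands were picked with this comparison known, nothing is read from these counts. The median difference of all loci was 0.0076, on a scale that is already set by the mapped fragments of each library.

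**Figure D3:**
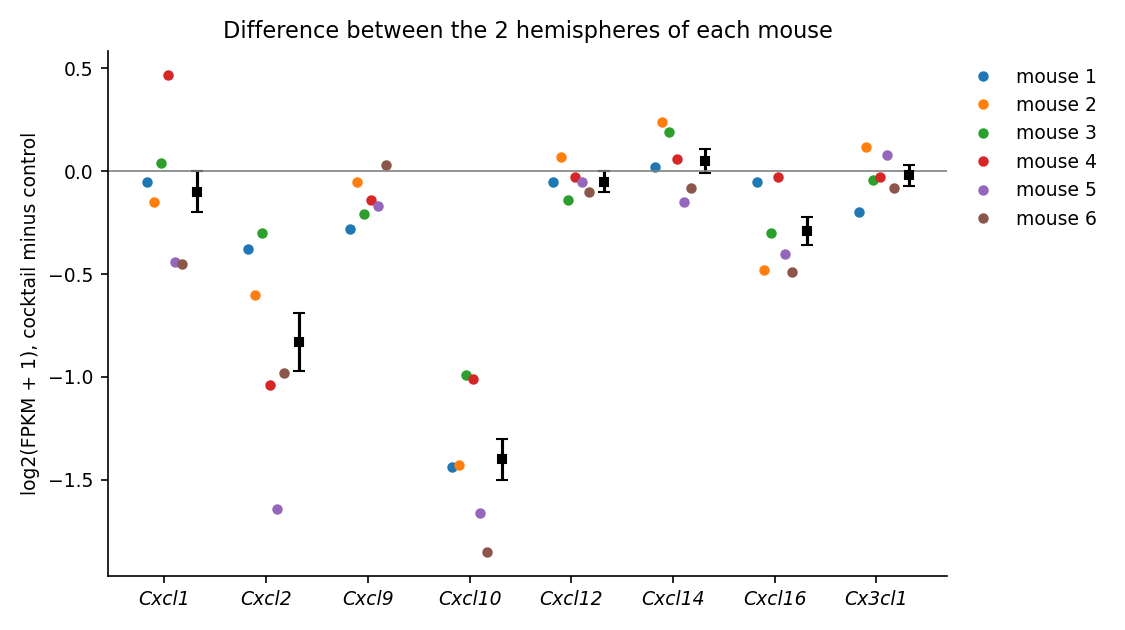
Difference in log2(FPKM + 1) between the cocktail and the control hemisphere, with a coloured point for each of the 6 mice and a black square with bars for the fitted difference and its standard error (not fitted for Cxcl9). Cxcl10 sits at -1.40 with no mouse above -0.99, Cxcl2 at -0.83 with mice from -1.64 to -0.30, and the 3 abundant ligands lie around 0.

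Whether a mouse with a high level in its control hemisphere also had a high level in its cocktail hemisphere was asked separately, since a shift between the groups does not enter a correlation. For Cxcl12 the order of the 6 mice was the same in both hemispheres, with mouse 1 lowest and mouse 6 highest. Pearson's r was 0.95 (exact permutation p = 0.00139, adjusted p = 0.0111 over 8 ligands), and Spearman's rho was 1.00 (exact permutation p = 0.00278, adjusted p = 0.0222). Without the 2 mice farthest from the control median r was 0.97. For Cxcl10 r was 0.79 and rho 0.77 (exact permutation p = 0.0875 and p = 0.103, adjusted p = 0.35 and 0.274), and r fell to 0.19 without the 2 farthest mice. The other 6 ligands had r from 0.20 for Cxcl1 to 0.64 for Cxcl16, and none passed the exact permutation test (adjusted p from 0.481 to 0.693). Among the 8 ligands, then, Cxcl12 alone showed a level shared by the hemispheres of a mouse that passed the adjusted test. Whether its r differed from that of the others was not tested, and the share of all loci with such an r was not counted. A different measure is the correlation, across all loci tested, between the deviations of a control and a cocktail hemisphere. It ran from 0.216 to 0.406 for the same mouse (median 0.337) and from -0.42 to 0.445 for different mice (median -0.0714). It does not give how many loci share their level as Cxcl12 did, so sharing is not called particular to Cxcl12.

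**Figure D4:**
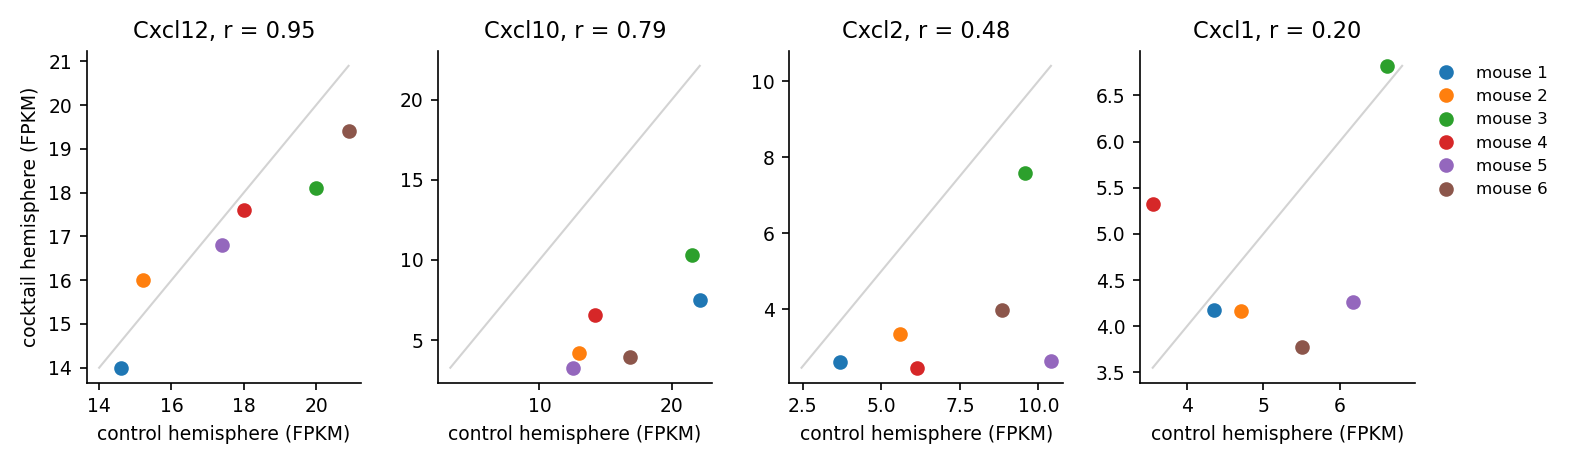
Level in the cocktail hemisphere against the control hemisphere of the same mouse, in FPKM on linear axes, for Cxcl12, Cxcl10, Cxcl2 and Cxcl1, with a point for each of 6 mice and a grey line where both are equal. The Cxcl12 points keep 1 order along the line (r = 0.95), all Cxcl10 points lie below the line, and the Cxcl1 points show little order (r = 0.20).

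The way the ligands varied together within groups is given as a description. It was taken over the deviations of log2(FPKM + 1) from the group mean in the 12 libraries, which share the animal by pairs. Of the 21 pairs of ligands, 19 had a positive correlation, with a median of 0.51. The same figures for pairs of all loci tested were not computed, so these are not read as a trait of the ligands. The highest was between Cxcl14 and Cxcl16 (0.72), and the neighbours Cxcl1 and Cxcl2 had 0.70. Cxcl2 and Cxcl10, both called lower in cocktail, had only 0.21. The lowest was between Cxcl16 and Cx3cl1 (-0.36).

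Among all other loci tested, those whose deviations were most like those of each ligand, at most 3 for a ligand, are named. For Cxcl1 they were Tlr2 (r = 0.93), Serpinh1 (0.92) and S100a13 (0.88). For Cxcl2 they were Tnfaip3 (0.97), Morc2a (0.94) and Il12b (0.94), and for Cxcl10 they were Tmem11 (0.86), Aco1 (0.86) and Megf11 (0.84). Tlr2 encodes a sensor of bacterial lipoproteins, Tnfaip3 the deubiquitinating feedback inhibitor A20 and Il12b a subunit of the cytokines IL-12 and IL-23. For Cxcl12 they were AU040320 (0.95), Slco3a1 (0.95) and Rgl1 (0.94), for Cxcl14 Nxf1 (0.94), Sgce (0.93) and Hnrnpul1 (0.91), for Cxcl16 Tm9sf1 (0.95) and Nbn (0.93), and for Cx3cl1 Ptchd2 (0.95), Ttyh3 (0.95) and Speg (0.94). None of the loci named here was called between the groups, with differences from -0.16 to 0.09. With 12032 loci and 12 libraries, high values are found for any gene, and nothing is read from them.

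The receptors of these ligands were measured in the same libraries, as genes outside the list. Of the 9 receptor genes found in these data, 4 were abundant enough to be tested, and none was called in either direction (median difference -0.13, from -0.20 to 0.13). Cx3cr1, the microglial receptor of Cx3cl1, stood at 7.04 ± 0.866 FPKM (SD, n = 6) in control and 6.06 ± 1.41 FPKM in cocktail slices (limma adjusted p = 0.658). Cxcr2, the receptor of Cxcl1 and Cxcl2, stood at 3.26 ± 0.357 and 2.94 ± 0.365 FPKM (limma adjusted p = 0.68) and was lower in 6 of 6 mice. The scavenger Ackr3 stood at 3.6 ± 0.682 and 3.99 ± 0.423 FPKM (limma adjusted p = 0.783). The atypical receptor Ackr1 was listed at 60.6 ± 9.14 and 54.6 ± 2.58 FPKM (limma adjusted p = 0.645), but 25.7% of its exonic bases overlap the adhesion gene Cadm3 on the same strand, so its level is uncertain.

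The other receptors were too low to be tested. Cxcr4, the signalling receptor of Cxcl12, had a mean of 0.99 FPKM, just under the filter of 1, with 0.781 ± 0.177 FPKM in the control group and 1.2 ± 0.335 FPKM in the cocktail group, higher in cocktail in 5 of 6 mice. Cxcr3, the receptor of Cxcl9 and Cxcl10, and Cxcr6, the receptor of Cxcl16, had 0 or 1 read in every library. Cxcr5, the receptor of Cxcl13, had 0.117 ± 0.0662 FPKM in the control group and 0.317 ± 0.127 FPKM in the cocktail group, from 1 to 15 reads a library, and was higher in cocktail in 6 of 6 mice. Cxcr1 had a mean of 0.0251 FPKM. The ligands Cxcl10 and Cxcl16 were thus measured in tissue with almost no transcript of their receptors.

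Of 8 further CXC ligands, 1 was tested and not called: Pf4, platelet factor 4, at 1.28 ± 0.269 and 1.57 ± 0.549 FPKM (SD, n = 6 each; limma adjusted p = 0.739). Cxcl11, the remaining Cxcr3 ligand, was too low for the fit. It had 0.425 to 1.16 FPKM (median 0.586) in control and 0.152 to 0.473 FPKM (median 0.284) in cocktail libraries, and was lower in 6 of 6 mice. The groups overlapped slightly, and 41.7% of its exonic bases are covered by a pseudogene on the opposite strand. Cxcl3 had 0.393 ± 0.159 and 0.307 ± 0.19 FPKM, and Cxcl5, Cxcl13, Cxcl15 and Ppbp lay at or under a mean of 0.114 FPKM. Cxcl17 was listed at 0 in all libraries.

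Genes that act behind the receptors and on the ligand proteins did not pass the test. Of 15 signalling genes (G protein subunits, arrestins, receptor kinases and the like) none was called, with a median difference of -0.02 and a range from -0.13 to 0.12. Of 6 proteases and their regulators none was called either (median -0.01, from -0.07 to 0.15). Among them, Adam10 and Adam17, the main sheddases of Cx3cl1 and Cxcl16, stood at 15.9 ± 2.67 and 4.04 ± 0.257 FPKM in control and at 15.8 ± 1.19 and 3.92 ± 0.232 FPKM in cocktail slices (SD, n = 6; limma adjusted p = 0.991 and 0.935).

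Of 19 tested genes known to control chemokine transcription, 13 were not called, 3 were called higher and 3 lower, and the median difference was 0.03. Over all loci, 1.5% were called and the median was 0.0076, and the list was chosen with earlier results of these data known. Cebpb, a leucine zipper factor of inflammatory genes, rose from 22.5 ± 1.78 to 30.3 ± 3.52 FPKM (log2 difference 0.41, SE 0.06, limma adjusted p = 0.00302), in 6 of 6 mice. Rel, the c-Rel subunit of NF-kappaB, rose from 2.25 ± 0.402 to 3.15 ± 0.263 FPKM (0.36, SE 0.07, limma adjusted p = 0.035). Nfkbiz, a nuclear cofactor of NF-kappaB, rose from 8.38 ± 1.97 to 11.1 ± 1.35 FPKM (0.39, SE 0.08, limma adjusted p = 0.0395), each in 6 of 6 mice.

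The genes called lower are an NF-kappaB cofactor and some, not all, of the listed members of the interferon regulatory factor family. Irf8, a myeloid and microglial factor, fell from 2.65 ± 0.3 to 1.77 ± 0.165 FPKM (log2 difference -0.39, SE 0.06, limma adjusted p = 0.00476), with 2.37 to 3.12 FPKM in control and 1.61 to 2.05 FPKM in cocktail libraries. Irf7, a factor of type I interferon responses, fell from 1.68 ± 0.427 to 1.15 ± 0.376 FPKM (-0.32, SE 0.07, limma adjusted p = 0.035). Bcl3, a nuclear partner of NF-kappaB p50 and p52, fell from 2.09 ± 0.229 to 1.44 ± 0.268 FPKM (-0.35, SE 0.07, limma adjusted p = 0.0338). All 3 were lower in 6 of 6 mice, as was Irf1, at 6.47 ± 1.57 and 4.67 ± 1.13 FPKM, which did not pass (-0.39, SE 0.09, limma adjusted p = 0.071). Irf3 and Irf9, of the same family, were higher in 5 and 4 of 6 mice and were not called (0.11 and 0.04, limma adjusted p = 0.674 and 0.955). The NF-kappaB subunit Rela (0.06) and the interferon signal transducer Stat2 (-0.09) were not called (limma adjusted p = 0.876 and 0.783).

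Of 8 genes known to act on the stability of chemokine transcripts, 2 were called higher and none lower, with a median difference of 0.10. Over all loci tested, 1.22% were called higher and the median was 0.0076, and this list too was chosen with earlier results known. Zfp36 (tristetraprolin), which directs decay of transcripts with AU-rich elements, rose from 47.2 ± 12.4 to 55.8 ± 13.6 FPKM (0.24, SE 0.04, limma adjusted p = 0.018), a difference smaller than the spread between mice but present in 6 of 6. Its relative Zfp36l2 rose from 16.9 ± 2.24 to 20.7 ± 1.55 FPKM (0.28, SE 0.06, limma adjusted p = 0.0346). Zfp36l1 was also higher in 6 of 6 mice and was not called (0.27, SE 0.06, limma adjusted p = 0.0578). Khsrp went the other way, lower in 6 of 6 mice, and was not called (-0.08, SE 0.04, limma adjusted p = 0.69). The decay nuclease Zc3h12a (0.10, limma adjusted p = 0.764) and the stabilising protein Elavl1 (0.03, limma adjusted p = 0.927) were not called.

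Most of these regulator calls were near the threshold. Leaving out any single mouse reduced the 8 called regulators to 3 or 4, and 2 were called without mouse as a block. Irf8 was called under each of the 14 alternatives in which it was tested, and Cebpb under 13 of 15, losing its call with voom on either set of loci.

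**Figure D5:**
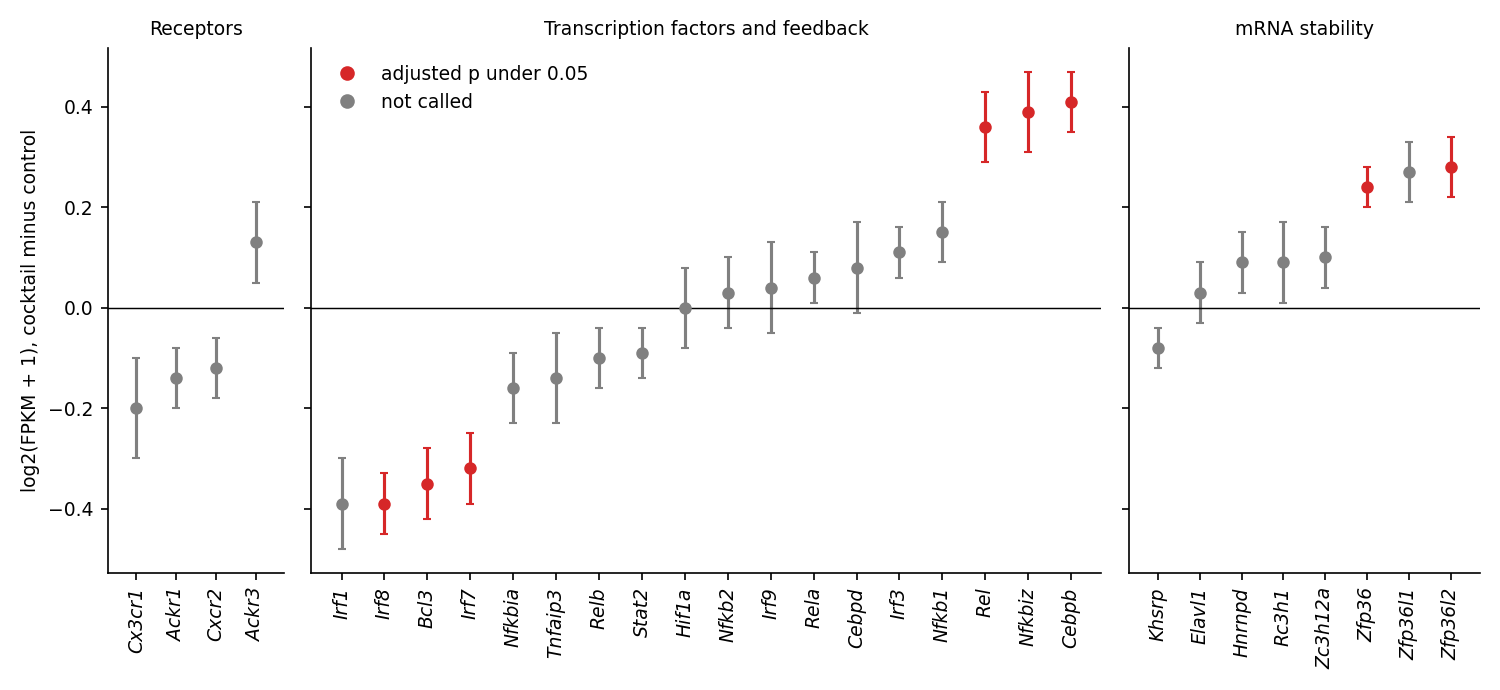
Difference in log2(FPKM + 1), cocktail minus control, for tested receptors, transcriptional regulators (18 of the 19) and mRNA stability factors, with a point for the fitted difference, bars for its standard error and red for an adjusted p under 0.05 over all loci. Cebpb (0.41), Nfkbiz (0.39) and Rel (0.36) are the highest of the middle panel and Irf8 and Irf1 (-0.39 each) the lowest, while no receptor is red.

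Markers of the cells that could make or receive these ligands were not called in either direction. For microglia 0 of 12 markers was called, the median difference was 0.08, and the summed level was 163 to 178 FPKM in control and 160 to 203 FPKM in cocktail libraries. For endothelial cells 0 of 8 was called, with sums of 76.7 to 83.8 and 72.6 to 87.4 FPKM. Astrocyte markers summed to 634 to 806 and 750 to 789 FPKM and the list for excitatory neurons to 3282 to 4152 and 3403 to 4035 FPKM. No gene was called in either list. The list for excitatory neurons includes the general neuronal genes Snap25 and Rbfox3, so its sum is not one of excitatory cells alone. All 4 tested markers of meningeal fibroblasts were higher in cocktail, with a median of 0.18, and none was called. The 7 oligodendrocyte and 7 inhibitory neuron markers were also all higher, with medians of 0.11 and 0.08 and none called, and no tested marker of mural cells or choroid plexus was called. The 1 tested red blood cell marker, Hbb-b1, had 2.99 ± 1.73 and 4.27 ± 1.54 FPKM and was higher in 5 of 6 mice (0.45, SE 0.11), but was not called (limma adjusted p = 0.0935). The part of these cells in the ligand values was not tested.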

How the data were processed

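Poly-A RNA of 12 auditory cortex samples, 6 control and 6 cocktail from the same 6 mice, was read as 50-base single reads in 1 sequencing lane. The authors removed ribosomal reads with BWA 0.6.1, aligned the rest to mm10 with TopHat 1.4.1 (at most 6 mismatches, 1 placement per read) and deposited FPKM from Cufflinks 1.3.0, corrected for sequence bias and scaled to the fragments of protein-coding genes. Paralogous reads with several placements are thus lost or placed once, and FPKM of a gene is relative to all others. The authors' own comparison, from HTSeq 0.6.1p1 counts and DESeq2 1.6.3, holds mean counts, fold changes and p-values for each gene and was not used.

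The ligands, gene lists and tests were chosen with earlier results of these data known. Log2(FPKM + 1) of the 12032 loci with a mean of at least 1 FPKM was fitted with limma 3.58.1 (R 4.3.3), with mouse as a block and a variance trend, and a locus was called at a Benjamini-Hochberg adjusted p under 0.05. A fold change on this scale understates the change of low genes. All 8 ligands are described, every called gene of the regulator lists is named, every receptor is named, and marker lists are given by counts. A few single-gene results are not reported here. Mouse numbers come from the labels and mark the same animal; deviations of the hemispheres of a mouse correlated at 0.216 to 0.406 (median 0.337, n = 6) and those of different mice at -0.42 to 0.445 (median -0.0714, n = 30).

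Reads were recovered from the intervals deposited around each FPKM, which span 2 Poisson standard deviations; 83.4% of 36048 values under 20 reads were whole to within 0.05. Libraries held a median of 14924263 reads in control and 15164166 in cocktail slices, and intervals of 95% from reads cover counting error only. No 2 libraries of a group differed by as little as sampling noise. Alternatives were the fit without the block, a pseudocount of 0.1, no filter, a mean FPKM of at least 5, 2 other scalings, no variance trend, voom on the recovered reads and leaving out each mouse; voom on loci with a read in at least 6 libraries was chosen after seeing the data. Overlaps were taken from GENCODE M21. Exact permutation tests were enumerated in Python 3.11.15 with numpy 2.4.6, with ranks and Poisson intervals from scipy 1.17.1. Plotting used matplotlib 3.10.9.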

Additional observations from a re-analysis of the deposited data

Results flagged for a closer look

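In 1 of 24 groups of 6 values looked at for the ligands (control levels, cocktail levels and within-mouse differences of 8 genes), a sample stood apart by Dixon's criterion, where chance would give about 1.2. It was Cxcl2 in the cocktail slice of mouse 3, at 7.58 FPKM against 2.46 to 3.98 FPKM in the other 5 cocktail slices, a gap of 0.704 of the range. The same mouse had 9.59 FPKM in its control slice.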

How the results depend on the processing

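With 6 mice and 1 difference per mouse, small shifts of low transcripts cannot be seen, and a miss of the threshold shows no equality. Replicates are mice, sampled once. Cxcl10 was called, and lower in cocktail, under all 15 alternatives (log2 difference -1.55 to -1.31). Cxcl2 kept its direction under all 15 and was called under 10 of them. The 180 called loci became 88 without the replicate block, 118 with voom on recovered reads and 104 to 181 when 1 mouse was left out, lowest without mouse 4. The 2 called ligands became 1 without the block, without a filter, and with voom on either set of loci, and 1 or 2 when 1 mouse was left out. Over the lists of further ligands, receptors, signalling genes, proteases and regulators together, the count of called genes went from 8 to 2 without the block. It was 4 without a filter, where more genes were tested. There Cebpb, Irf8 and Zfp36 stayed called, the other called regulators were lost, and a gene not called in the main fit was added. The count was also 4 at a mean FPKM of at least 5, where fewer genes were tested. With voom on either set of loci it was 2, and it was 3 to 4 when 1 mouse was left out. The cause was not tested. Direction turned in a few values near 0 when 1 mouse was left out. The Cx3cl1 difference ranged from -0.05 to 0.01, with the turn without mouse 1, and the correlation between hemispheres from -0.73 to 0.62 for Cxcl1 and from -0.46 to 0.70 for Cxcl9. The steps between neighbouring control levels and the correlation of Cxcl12 (0.91 to 0.98) kept their direction when 1 mouse was left out.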
